A study of Homo sapiens with 4 samples.

Results

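The 46 genes described here are those of the Notch pathway together with the mastermind-like (MAML) coactivators that serve it. Among them are receptors, ligands, the enzymes that modify and cut the receptors, the nuclear complex, effector genes and regulators of receptor and ligand turnover. They were taken from a list of gene symbols. The deposited tables hold 44 of them among 19626 genes. HES2 and HEYL were not analysed here. RNA was from ES-2, an established human cell line labelled as ovarian clear cell carcinoma, which carries the endogenous YAP1-MAML2 (YM) fusion. In all groups cells received pLKO.1 lentivirus for 8 h on each of consecutive days, expressing either a nontargeting control shRNA (shCtl, n = 2 biological replicates) or an shRNA against MAML2 (shM2-3, n = 2). RNA was taken 96 h after the first infection by the labels, and the study's methods give a shorter time. The comparison asks how the transcriptome differs once YM and MAML2 are depleted. A single shRNA, a single cell line and a whole-gene readout limit it: the fusion keeps the 5′ part of YAP1 and the 3′ part of MAML2, so shM2-3 acts on both transcripts, and the share of native MAML2 and of YM in any change cannot be told apart.

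Notch receptors are activated by JAG and DLL ligands on neighbouring cells. ADAM proteases and then γ-secretase cut the receptor, and the freed intracellular domain enters the nucleus, binds RBPJ on DNA and recruits a MAML protein. MAML in turn brings in the acetyltransferases CREBBP and EP300, and genes such as HES1, HEY1 and NRARP are switched on. MAML proteins bind Notch and RBPJ through their N terminus. The YM fusion lacks this part of MAML2 and has the TEAD-binding part of YAP1 in its place.

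The sequences below show where shM2-3 acts and which of the HES promoters hold the letters that RBPJ reads. The shRNA target lies in exon 5 of 5 of MAML2, at chr11:95979714-95979734 of hg38 on the minus strand, within the coding sequence that the fusion retains. It is given in capitals between 20 bases of the transcript (GENCODE v44) on either side.
shM2-3 target: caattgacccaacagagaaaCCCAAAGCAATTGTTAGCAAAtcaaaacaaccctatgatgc
MAML2 was the 1 gene whose annotated transcripts hold all 21 bases. In the transcripts of the other members the closest ungapped stretch differed at 6 to 10 positions, and at 8 positions in MAML1 as well as in MAML3.

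Promoters of 37 of the 44 genes were found in RefSeq (GRCh38.p14), as 45 windows from 250 bases before to 50 bases after each start. Some genes have several windows, so the counts of genes and the shares of windows below are not like measures. The RBPJ letters GTGGGAA, searched on both strands, were in windows of 5 genes (HES1, HES4, HEY2, RBPJ and SPEN) and in 6.25% of all promoter windows. The TEAD letters GGAATG, also searched on both strands and able to overlap the RBPJ letters, were in windows of 3 genes (ADAM17, APH1A and DTX4) and in 14% of all windows. The stretches from 115 to 56 bases before the starts of HES1 and HES4, whose values part below, are at chr3:194136033-194136092 (plus strand) and chr1:1000153-1000212 (minus strand). Capitals mark the RBPJ letters, which begin 85 bases before the HES1 start and 77 bases before the HES4 start.
HES1 promoter: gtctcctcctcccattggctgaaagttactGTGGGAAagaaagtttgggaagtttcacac
HES4 promoter: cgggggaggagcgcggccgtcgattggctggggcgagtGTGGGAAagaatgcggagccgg
Such matches are descriptions of letters and do not show that a factor binds there.

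Libraries held between 20051083 and 23978660 estimated counts, the authors' estimate of the reads of each gene. RPKM scales that count by transcript length and library size. A gene entered the test if its RPKM was above 1 in at least 1 library, which 35 of the 44 genes and 12157 genes in all did, and it was called at an adjusted p of 0.05 or less with a fold change of at least 2. The p-values below come from the quasi-likelihood test of edgeR, adjusted after Benjamini and Hochberg over all genes tested, and SE stands for the standard error. With 2 libraries per group, each SD rests on a pair of values and the p-values measure the spread between these libraries. Of the markers fixed for the line, KRT7, KRT8 and KRT18 were expressed and fell, by 1.26, 1.22 and 0.68 on the log2 scale, and the epithelial list summed to an RPKM of 637 in shCtl and of between 312 and 316 in shM2-3. Its part in the results below was not tested. By contrast, KRT19, EPCAM, CDH1, NAPSA and PAX8 stayed at an RPKM of 0.369 or less in every library, so the clear cell markers NAPSA and PAX8 were not expressed above an RPKM of 1. Leukocyte and fibroblast markers were at an RPKM under 1 in shCtl, apart from CD68 and PDGFRA, and the fibroblast list summed to between 7.95 and 8.01 in shCtl and between 25.1 and 25.7 in shM2-3, nearly all of it PDGFRA. CSF1R and LYZ passed 1 in shM2-3, LYZ in 1 of the 2 libraries, and the leukocyte list summed to between 57.5 and 58.3 in shCtl and between 42.0 and 43.0 in shM2-3. Most of the leukocyte sum was CD68, whose mean RPKM fell from 57.1 to 38.4, while that of CSF1R rose from 0.0492 to 1.94. In bulk RNA, fewer cells with a transcript and less of it per cell cannot be told apart.

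Of the 35 members tested 6 were called, 2 lower and 4 higher. MAML2 and HES7 fell, and MAML3, JAG1, LFNG and HES1 rose. Over all genes tested, 8.93% were called lower, 9.24% higher and 18.2% in either direction, so the share of the pathway called, 17.1%, was near the background. Without the fold limit, 9 members were lower and 24 higher at an adjusted p of 0.05 or less, which is 94.3% of those tested. Over all genes tested these shares were 36.4% lower and 36.3% higher, 72.7% together. The median log2 fold change of the members tested was 0.39, against -0.00373 for all genes tested. Their median RPKM in shCtl was 8.83, against 7.24 for all genes tested. Of the 33 members that passed on the adjusted p, 25 did so under every alternative tried, and RBPJ, SPEN, DLL3, PSEN2, APH1B, PSENEN, HEY2 and NUMBL did not.

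**Figure D1:**
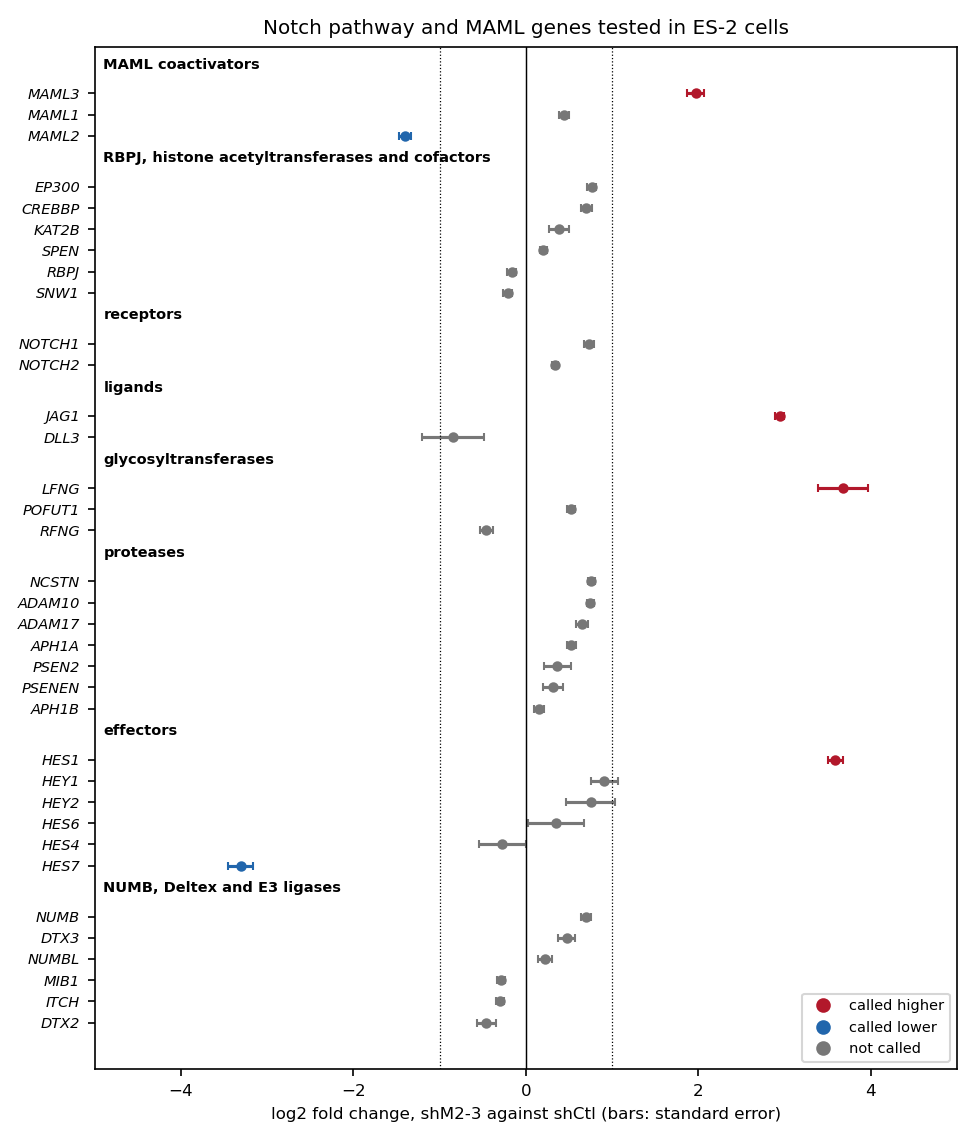
Log2 fold change of shM2-3 against shCtl (x axis) for the 35 genes tested, grouped by role, with bars for the standard error and dotted lines at a fold change of 2. The 6 called genes lie beyond the lines and are coloured, and the 7 proteases all lie between 0.15 and 0.76.

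**Figure D2:**
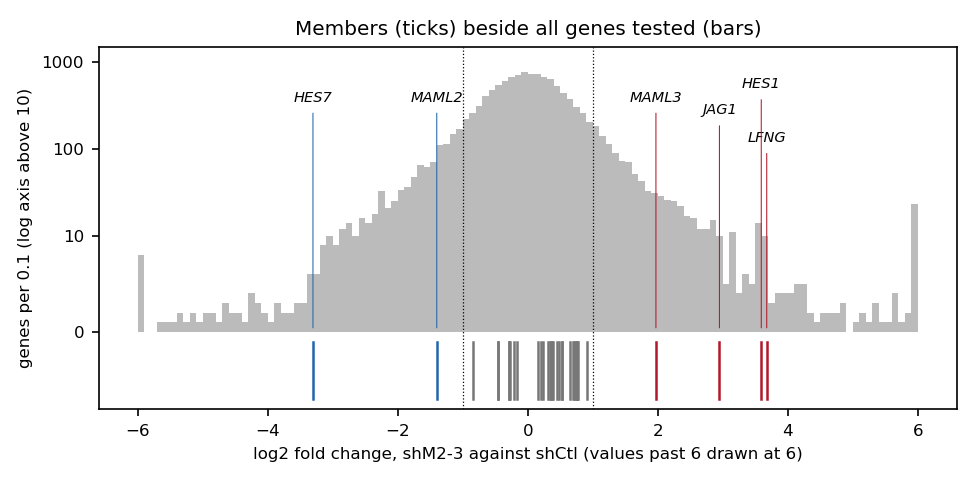
Number of genes per 0.1 of log2 fold change (grey bars, y axis linear to 10 and logarithmic above) for the 12157 genes tested, with the 35 Notch and MAML genes as ticks under them. Most ticks lie between the dotted lines at a fold change of 2, and the 6 named genes lie outside.

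The MAML genes encode the coactivators that complete the Notch complex, and their 3 transcripts moved in different directions. MAML2, the target of the shRNA, had 1436 and 1402 counts in the shCtl libraries and 634 and 553 in shM2-3. Its log2 fold change was -1.40 (SE 0.0688, adjusted p = 5.18e-10). MAML3 had 259 and 336 counts in the shCtl libraries and 1367 and 1206 in shM2-3. Both shM2-3 libraries lay well above both shCtl libraries, with a MAML3 RPKM of 1.84 ± 0.315 (SD, n = 2) rising to 6.88 ± 0.124 (SD, n = 2). The log2 fold change of MAML3 was 1.97 (SE 0.0979, adjusted p = 5.90e-10). MAML3 has 3.68% of its annotated exon bases in common with MGST2 on the other strand, and MGST2 fell, with a log2 fold change of -0.57 (SE 0.216, adjusted p = 0.0304). MAML1 rose less, from an RPKM of 9.52 and 10.0 to 13.0 and 12.4, a log2 fold change of 0.44 (SE 0.0558, adjusted p = 8.24e-06).

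Because RPKM is scaled by length, the levels of the family can be set side by side. In shCtl the summed MAML RPKM was 19.7 and 20.4, and in shM2-3 it was 23.1 and 22.2. MAML2 made up 42.1% ± 2.11 (SD, n = 2) of the sum in shCtl and 13.5% ± 0.0452 (SD, n = 2) in shM2-3. MAML3 went from 9.15% ± 1.38 (SD, n = 2) to 30.4% ± 0.330 (SD, n = 2), and MAML1 from 48.7% ± 0.739 (SD, n = 2) to 56.1% ± 0.375 (SD, n = 2). The summed MAML level was therefore no lower in either shM2-3 library, although MAML2 itself kept 36.2% of its control RPKM. MAML2 values include reads from the 3′ part of YM, and 8.96% of the exon bases of MAML2 overlap other annotated genes. YAP1, whose 5′ part the fusion carries, rose from 82.4 ± 0.865 to 106 ± 0.317 RPKM (SD, n = 2 each), a log2 fold change of 0.42 (SE 0.0365, adjusted p = 1.79e-07).

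**Figure D3:**
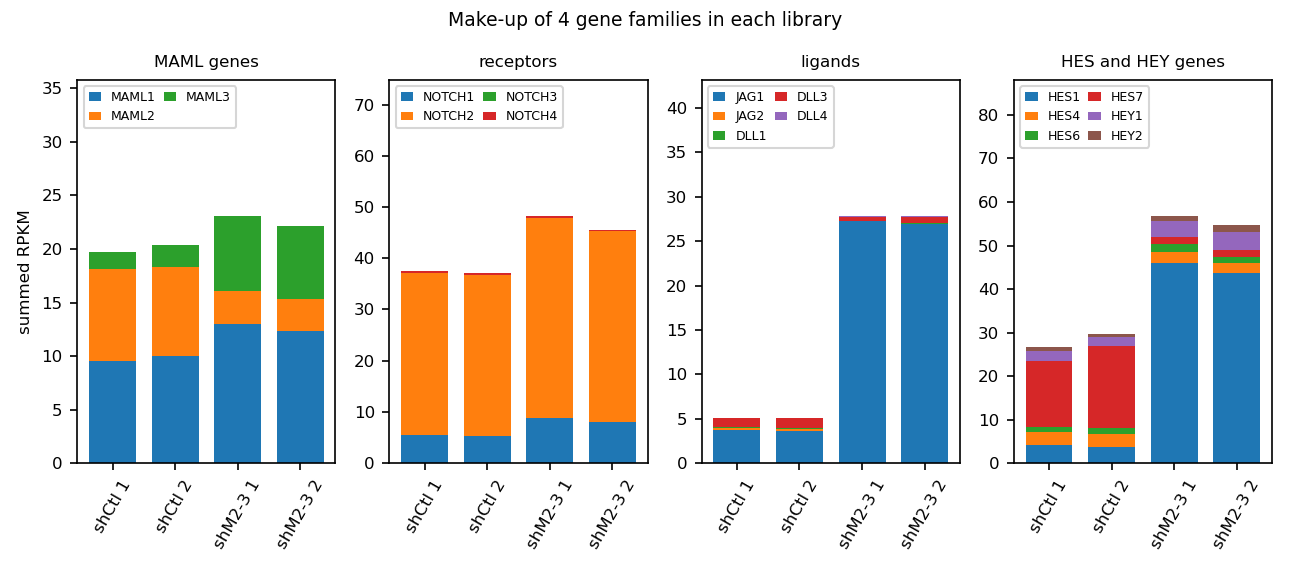
Summed RPKM (y axis) of the MAML, receptor, ligand and HES and HEY genes in each of the 4 libraries, split by gene. MAML3 widens as MAML2 narrows, JAG1 fills 97.3% of the ligand sum in shM2-3, and HES1 takes the place of HES7 as the most abundant of the HES and HEY transcripts.

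In the nuclear complex, RBPJ, the DNA-binding factor on which MAML and Notch assemble, had 2053 and 1952 counts in the shCtl libraries and 2082 and 1872 in shM2-3. After scaling for library size RBPJ fell by 0.16 on the log2 scale (SE 0.0529, adjusted p = 0.0143), and the adjusted p was 0.0623 with DESeq2 and 0.144 without shCtl replicate 1. The acetyltransferases that MAML recruits both rose. EP300 had an RPKM of 6.01 and 5.93 in shCtl and of 10.0 and 9.33 in shM2-3, a log2 fold change of 0.76 (SE 0.0554, adjusted p = 3.09e-08). CREBBP rose likewise, by 0.70 on the log2 scale (SE 0.0618, adjusted p = 2.22e-07). KAT2B, a further acetyltransferase, rose by 0.39. SPEN, a corepressor that competes for RBPJ, rose by 0.20, though its adjusted p was 0.0681 with limma on log2(RPKM + 0.1). SNW1, a splicing factor and Notch cofactor, fell by 0.21. None of these 6 genes reached a fold change of 2.

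NOTCH2 was the main receptor transcript of these cells. It held 84.6% of the summed receptor RPKM in shCtl and 81.2% in shM2-3, and NOTCH1 held 14.3% and 18.1%. NOTCH2 had 8765 and 8869 counts in the shCtl libraries and 13221 and 11396 in shM2-3, and rose with a log2 fold change of 0.34 (SE 0.0392, adjusted p = 3.68e-06). NOTCH1 rose from an RPKM of 5.44 and 5.27 to 8.88 and 8.12, a log2 fold change of 0.73 (SE 0.0586, adjusted p = 8.32e-08). Both receptors were higher in each shM2-3 library than in each shCtl library, and neither reached a fold change of 2. NOTCH3 had 1 and 3 counts in the shCtl libraries and 10 and 6 in shM2-3, and NOTCH4 had 76 and 52 against 59 and 54. Neither was tested, as the RPKM of NOTCH3 did not pass 0.0402 and that of NOTCH4 did not pass 0.474.

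Of the 2 ligands that were tested, JAG1, a membrane-bound activator of Notch receptors, rose and DLL3 fell. It had 517 and 515 counts in the shCtl libraries and 4635 and 4148 in shM2-3. The JAG1 RPKM was 3.68 ± 0.0536 (SD, n = 2) under shCtl and 27.1 ± 0.224 (SD, n = 2) in shM2-3. Replicates lay close together and the groups far apart. The log2 fold change of JAG1 was 2.95 (SE 0.0527, adjusted p = 1.99e-14), a 7.71-fold rise. JAG1 lies on chromosome 20 of hg38, from 10637684 to 10673999 on the minus strand, and 3.29% of its exon bases overlap an annotated noncoding gene. DLL3, a ligand-like protein that acts mainly inside the cell, had 58 and 62 counts against 28 and 45. Its log2 fold change was -0.85 (SE 0.360, adjusted p = 0.0485), and the adjusted p ran from 0.0508 to 0.298 under the 5 alternatives that took it past 0.05, which include DESeq2 and leaving out either shCtl library or shM2-3 replicate 1. DLL3 entered the test through the shCtl libraries alone, where it was the higher.

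The remaining ligands were too low to be tested. JAG2 had 32 and 29 counts in the shCtl libraries and 4 and 6 in shM2-3. In the same edgeR test without the RPKM limit, the log2 fold change of JAG2 was -2.74 (SE 0.652, adjusted p = 7.46e-05). DLL1 had 6 and 11 counts against 4 and 5, and DLL4 had 0 and 0 against 12 and 5. Without the RPKM limit DLL4 was called higher (adjusted p = 0.0136 by edgeR), with no fold given because shCtl was at 0, and DLL1 was not called (adjusted p = 0.436). The summed ligand RPKM was 5.08 in each shCtl library and 27.8 in each shM2-3 library. JAG1 made up 72.4% ± 1.13 (SD, n = 2) of it in shCtl and 97.3% ± 0.715 (SD, n = 2) in shM2-3. DLL4 and NOTCH4 are best known from endothelial cells. Of 7 endothelial markers, CDH5 was above an RPKM of 1 in shCtl, and CDH5 and, in 1 of the 2 libraries, PECAM1 were in shM2-3, where the others stayed at 0.546 or less. The list summed to between 9.48 and 10.7 in shCtl and between 5.63 and 6.22 in shM2-3. Most of that sum was CDH5, whose mean RPKM fell from 9.66 to 4.10, while that of PECAM1 rose from 0.0342 to 1.12. The sum therefore does not show that the endothelial markers fell together.

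Receptor sugars decide which ligands a Notch receptor answers. POFUT1, which adds the O-fucose that fringe enzymes extend, rose from an RPKM of 22.1 and 20.9 to 29.4 and 29.6, a log2 fold change of 0.52 (SE 0.0454, adjusted p = 2.02e-07). The fringe genes parted. LFNG had 17 and 10 counts in the shCtl libraries and 207 and 177 in shM2-3, and its log2 fold change was 3.67 (SE 0.292, adjusted p = 7.76e-08). LFNG was at an RPKM of 0.225 and 0.130 in shCtl and entered the test through the shM2-3 libraries alone, so a difference between groups was built into its selection. On the log2(RPKM + 1) scale its change was 1.43. RFNG fell from an RPKM of 20.6 and 23.2 to 14.8 and 15.6, a log2 fold change of -0.46 (SE 0.0784, adjusted p = 0.000143). RFNG shares 21.6% of its exon bases with GPS1, which libraries without strand cannot separate. Even so RFNG remained the most abundant fringe transcript, at 99.0% ± 0.317 (SD, n = 2) of the fringe RPKM in shCtl and 87.3% ± 1.13 (SD, n = 2) in shM2-3, and LFNG went from 0.819% to 12.5%. MFNG had 5 counts or fewer in each library.

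The proteases that release the Notch intracellular domain moved one way. All 7 were higher in shM2-3 at an adjusted p of 0.05 or less and none was called. Over all genes tested, 36.3% were higher at that limit. ADAM10, which makes the first ligand-dependent cut, had 3668 and 3760 counts in the shCtl libraries and 7202 and 6541 in shM2-3. Its log2 fold change was 0.75 (SE 0.0408, adjusted p = 1.64e-09). ADAM17 rose from an RPKM of 10.9 and 10.2 to 15.1 and 16.7, a log2 fold change of 0.65 (SE 0.0681, adjusted p = 1.25e-06), with 11.7% of its exon bases overlapped by other annotated genes. Within γ-secretase, NCSTN, the subunit that receives the substrate, rose from an RPKM of 53.2 and 56.0 to 88.5 and 88.2, a log2 fold change of 0.76 (SE 0.0426, adjusted p = 2.09e-09). APH1A, a scaffold subunit with 14.1% of its exon bases overlapped, rose by 0.53. The changes of the other 3 subunits were small: 0.37 for PSEN2, a catalytic subunit, 0.31 for PSENEN, its activator, and 0.15 for APH1B, at adjusted p-values of 0.0458, 0.0283 and 0.0350. These 3 did not hold throughout, since the adjusted p was 0.130, 0.0842 and 0.108 with DESeq2. PSEN2 and PSENEN share 38.7% and 52.2% of their exon bases with other annotated genes.

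The HES and HEY effector genes split most widely. HES1, the repressor used most often as a readout of Notch activity, had 153 and 137 counts in the shCtl libraries and 2079 and 1782 in shM2-3. The HES1 RPKM went from 3.90 ± 0.350 (SD, n = 2) to 44.8 ± 1.73 (SD, n = 2), with no overlap between the groups. Its log2 fold change was 3.59 (SE 0.0873, adjusted p = 3.36e-13). HES1 lies on chromosome 3 of hg38, from 194136148 to 194138732, and no other annotated exon overlaps it. HES7, a HES gene known from the segmentation clock of the embryo, went the other way, with 595 and 752 counts in the shCtl libraries and 75 in each shM2-3 library. The HES7 RPKM fell from 16.8 ± 2.58 (SD, n = 2) to 1.63 ± 0.115 (SD, n = 2). Its log2 fold change was -3.30 (SE 0.147, adjusted p = 1.79e-10), so that 9.67% of the control RPKM remained. HES7 lies on chromosome 17, from 8120592 to 8124106 on the minus strand, and its exons overlap no other gene.

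HEY1, a further Notch-responsive repressor, had 139 and 125 counts in the shCtl libraries and 278 and 269 in shM2-3. It rose with a log2 fold change of 0.91 (SE 0.155, adjusted p = 0.000129), just under the fold limit, and without shCtl replicate 1 the value was 1.00 and past it. HEY2 had 55 and 50 counts against 84 and 110, a log2 fold change of 0.75 (SE 0.285, adjusted p = 0.0296), with an adjusted p of 0.0617 with DESeq2 and 0.265 without shM2-3 replicate 2. HEY2 also entered the test through the shM2-3 libraries alone. HES4 had 69 and 71 counts in the shCtl libraries and 70 and 58 in shM2-3, and its log2 fold change was -0.27 (SE 0.275, adjusted p = 0.386). HES6 had 38 and 47 against 69 and 51, and its log2 fold change was 0.35 (SE 0.323, adjusted p = 0.343). The RPKM of HES6 overlapped between the groups. NRARP, a feedback inhibitor that Notch induces, had 24 and 15 counts against 27 and 16 and was too low to be tested. The promoters of HES1 and HES4 printed above both hold the RBPJ letters. Whether the letters bear on the values of either gene was not tested. The summed HES and HEY RPKM rose from 28.1 ± 2.19 (SD, n = 2) to 55.8 ± 1.46 (SD, n = 2). HES7 was 59.6% ± 4.55 (SD, n = 2) of that sum in shCtl and 2.92% ± 0.282 (SD, n = 2) in shM2-3, while HES1 was 13.9% ± 2.33 (SD, n = 2) and 80.4% ± 0.994 (SD, n = 2).

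**Figure D4:**
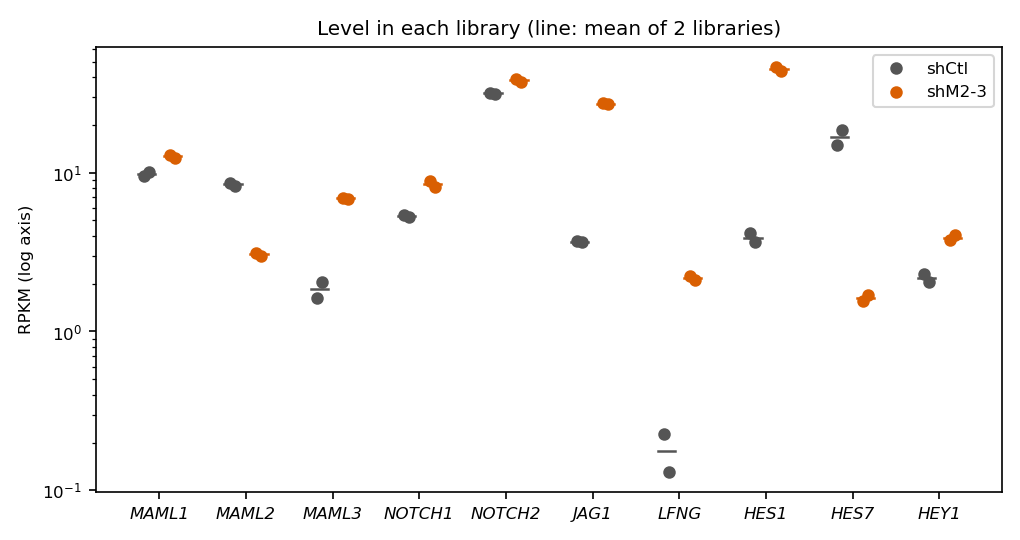
RPKM on a logarithmic axis in each of the 2 shCtl and 2 shM2-3 libraries for 10 of the genes, with a line at each group's mean. The 10 include every called gene, and MAML2 and HES7 are the ones of them that lie lower in shM2-3.

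Of the genes that control the fate of receptors and ligands, 3 rose and 3 fell, all by less than 2-fold. NUMB, an adaptor that sends Notch for degradation, rose from an RPKM of 16.9 and 19.1 to 27.8 and 27.7, a log2 fold change of 0.69 (SE 0.0571, adjusted p = 1.15e-07). For its relative NUMBL the log2 fold change was 0.23 (adjusted p = 0.0223), which was at 0.0754 with DESeq2. ITCH, a ubiquitin ligase for Notch, fell from an RPKM of 18.7 and 18.2 to 14.8 and 13.9, a log2 fold change of -0.30 (SE 0.0467, adjusted p = 6.43e-05). ITCH shares 23.9% of its exon bases with other annotated genes. MIB1, the ligase that ligands need for their activity in the sending cell, fell by 0.29 (SE 0.0457, adjusted p = 6.19e-05). Among the Deltex ligases DTX3 rose by 0.47 and DTX2 fell by 0.46. DTX1 had 1 count or none in each library, DTX4 had 48 and 40 against 26 and 38, and neither was tested.

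A further list of 42 genes around the pathway, drawn up with earlier results of these data known, was read in the same fit. Of 36 tested, 7 were called higher and none lower, or 19.4% against the 18.2% of all genes. By direction, 9.24% of all genes tested were called higher and 8.93% lower. At an adjusted p of 0.05 or less 20 of the list were higher and 7 lower, or 75% against 72.7% of all genes tested. Over all genes tested, 36.3% were higher and 36.4% lower at that limit. The median log2 fold change of the list was 0.26. FURIN, the convertase that matures Notch receptors, rose from an RPKM of 16.0 ± 0.455 to 41.0 ± 0.608 (SD, n = 2 each), a log2 fold change of 1.42 (SE 0.0451, adjusted p = 5.16e-12). POGLUT1, which adds O-glucose to the receptors, rose by 1.06, and EOGT, which adds a further sugar, rose by 0.78. Among the corepressors TLE4, a Groucho protein that HES factors recruit, had 330 and 379 counts in the shCtl libraries and 2343 and 2129 in shM2-3. Its log2 fold change was 2.52 (SE 0.0725, adjusted p = 1.96e-12). HDAC1, a histone deacetylase of RBPJ repressor complexes, rose by 1.22, while TLE1 fell by 0.63. SOX9, a reported Notch target, was the highest of the list, with 1117 and 1229 counts against 7770 and 7294 and a log2 fold change of 2.54 (SE 0.0513, adjusted p = 5.76e-14). Of the 5 genes tested among those listed as further targets, 3 were higher at an adjusted p of 0.05 or less. BHLHE40 was lower, by 0.77, and 1 did not pass. CDKN1A, a cell cycle inhibitor, rose by 2.11, and CNTN1, a contactin that can bind Notch, rose by 1.13 from an RPKM of 0.437 to 0.916, having entered the test through shM2-3 replicate 2 alone. The lowest was NEDD4L, a ubiquitin ligase, which fell by 0.84. CDK8, a kinase that marks the Notch intracellular domain for turnover, fell by 0.83, and for FBXW7, the ligase that then removes it, the value was 0.02 (adjusted p = 0.864).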

How the data were processed

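Total RNA of 4 libraries was sequenced as non-strand-specific paired ends. The authors aligned the reads to hg38 with HISAT2 2.0.4, dropped ambiguous and low-quality alignments and quantified RefSeq transcripts in Partek 7.18. The estimated counts were deposited without normalization, and between 42.4% and 48.6% of them were whole numbers. The deposited RPKM values were made by the authors from these reads. No other table was used.

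Estimated counts were rounded and tested with edgeR 4.0.16 in R 4.3.3 (TMM, quasi-likelihood test, without a block). The filter, fold limit and adjusted p limit are those of the study's methods, which name edgeR but not the test within it. The standard error was taken as |log2 fold change|/√F. On simulated counts for 12157 genes, 200 of 200 genes changed 4-fold were recovered and 1 unchanged gene was called. The changed genes were drawn from well-counted genes, and every gene was given the same spread between libraries. Genes with low counts or changes near the fold limit were therefore not covered. The median log2 change over all genes tested was -0.0683 on the log2(RPKM + 0.1) scale, so RPKM ratios are slightly below the fitted folds. Alternatives were DESeq2 1.42.0, limma 3.58.1 on log2(RPKM + 0.1) and log2(RPKM + 1), other scalings and filters, the replicate number as a block, and leaving out each library. Those for the further pathway list were added after the data were seen. The shRNA target was placed by matching the sequence in the study's methods to the MAML2 transcript.

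The members and lists were chosen with earlier results of these data known. Every member was accounted for: those called, with MAML1, NOTCH1, NOTCH2, NOTCH3 and RBPJ whatever their values, were to be given in full and the others by role. Of the further genes, those called and the lowest and highest were to be named, and EOGT, TLE1, BHLHE40, CDK8 and FBXW7 were added after their values were seen. HES2 and HEYL were not analysed here. A marker of the cell line label is not reported here.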

Additional observations from a re-analysis of the deposited data

How the results depend on the processing

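The 6 calls among the Notch and MAML genes kept their direction and stayed past both limits under all 12 alternatives to scaling, test, filter, unit, block and libraries. Of 420 single-gene values, 417 kept their call, or lack of one, by both limits together and none changed direction, though 42 values of 8 members that were past the adjusted p limit went over it without having been called. The other 3 passed the fold limit only when a library was left out: DLL3 at -1.31 without shM2-3 replicate 2, HEY1 at 1.00 without shCtl replicate 1 and HEY2 at 1.00 without shM2-3 replicate 1. The median log2 fold change of the members tested, 0.39, was 0.33 with no RPKM filter, 0.33 with filterByExpr, 0.31 on log2(RPKM + 0.1) and 0.26 on log2(RPKM + 1), and between 0.36 and 0.48 with each library left out. With a fold limit of 1.5, members called went from 2 lower and 4 higher to 3 and 13, the further pathway genes from 0 lower and 7 higher to 4 and 11, and all genes from 1086 lower and 1123 higher to 2302 and 2296. On log2(RPKM + 1), 596 of all genes were called higher. With the replicate block, 2 members were called lower and 4 higher, 0 and 7 of the further genes, and 1079 and 1123 of all genes, and the deviations of libraries with the same number had a correlation of -0.0287, so the numbers were not taken as pairs. LFNG depended most on its low control counts, at 4.12 without shCtl replicate 1 and 3.33 without shCtl replicate 2. Depth limits NOTCH3, DLL1, DLL4, MFNG and DTX1, each at under 13 counts in every library. A count of 0, as for DLL4 in shCtl, allows up to 3 counts, for counting error only.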

Other observations

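Protein-coding neighbours within 100 kb of the 6 called genes were also read, a choice made after the values of the called genes had been seen. Around HES7, PER1, a clock gene 16366 bases away, had a log2 change of -1.72 (SE 0.0694, adjusted p = 6.74e-11 by edgeR), from an RPKM of 16.4 to 4.76. VAMP2, TMEM107 and BORCS6, farther along, fell by 0.43, 0.28 and 0.40, and AURKB, a mitotic kinase 80627 bases away, fell by 1.00. The 5 tested neighbours of HES7 were thus all lower. Over all genes tested, 36.4% were lower and 36.3% higher at an adjusted p of 0.05 or less by edgeR.

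Around LFNG all 3 tested neighbours were higher. IQCE, a cilium gene 29795 bases away, had a log2 change of 1.91 (SE 0.121, adjusted p = 7.43e-09 by edgeR), from an RPKM of 0.885 to 3.19, and CHST12 and BRAT1 rose by 0.70 and 0.24. MAML2 had MTMR2 at -0.15 (adjusted p = 0.00888 from edgeR), CCDC82 at 0.11 and JRKL at -0.11 beside it, with CCDC82 and JRKL not past the adjusted p limit. JAG1 had SLX4IP, which lies 855 bases away, at -0.10 (adjusted p = 0.503 from edgeR), beside its own rise of 2.95. HES1 had no protein-coding neighbour with a row in the tables within that distance. Whether neighbouring genes share regulation was not tested.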
